A study of Mus musculus with 7 samples.

Results

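The genes described here code for the sarcomere of the heart, for its Z disc and for the costamere. The list is fixed by name: 38 gene symbols were looked up in the deposited count table, all 38 were present among its 20343 genes, and all 38 passed the filter on low counts among the 7667 genes tested. Troponins were not on the list. RNA was sequenced from the apical myocardium of 7 mice of the strain given as NSG-DRB1*0101 (NSG-DR1). NSG mice are severely immunodeficient, with no mature T, B or natural killer cells of their own but with myeloid cells, and the transgene adds the human class II molecule HLA-DR1. The 4 control hearts came from untreated mice and the 3 transferred hearts from mice given human CD4+ T cells, taken 6 weeks after transfer. Control and transferred mice thus share the immunodeficiency and the transgene. The labels give no age, no sex and no number of T cell donors. Each sample has an identifier of its own and was taken as the heart of a separate mouse, which the labels do not state. If that is wrong, the p-values measure only the spread between samples. The identifiers of transferred hearts 1 and 3 end in a GP code and that of transferred heart 2 in an NK code, and the labels do not explain either.

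In a sarcomere, thin filaments of actin and tropomyosin slide along thick filaments of myosin. The Z disc anchors the thin filaments and the M band ties the thick filaments together, while titin spans the distance between them. Costameres connect the outermost Z discs to the cell membrane and the matrix, and desmin filaments link Z discs to each other and to the nucleus. Mutations in many of these genes cause inherited cardiomyopathy, and some of them are known to rise when the heart muscle is stressed.

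None of the 38 genes rose or fell past the threshold, an adjusted p of 0.05 in the edgeR quasi-likelihood test, whereas 0.235% of all tested genes passed it. At an unadjusted p under 0.05 there was 1 of 38 (2.63%), Nebl, against 12.4% of all tested genes. It was also the 1 gene of the 38 whose groups did not overlap, against 11.2% of all tested genes. DESeq2 called 0 of the 38 after adjustment and 3 at an unadjusted p under 0.05 (3.26% and 12.9% of all tested genes). With limma-voom these counts were 0 and 1 (0.0% and 11.8% of all tested genes). The log2 fold changes, transferred over control, had a median of -0.031 and ran from -0.43 to 0.39, with 16 above 0 and 22 below. Over all tested genes the median was -0.0020.

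The 95% interval lay wholly within a 1.5-fold change in either direction for 28 of 38 genes (73.7%, against 61.8% of all tested genes) and within a 2-fold change for 36. The 2 exceptions were Myh7b and Neb, whose intervals reached above 2-fold. Among genes with a mean of at least 100 CPM (counts scaled to a common library total), the 30 members had a median absolute log2 fold change of 0.072, and the 1749 tested genes at that level had 0.088. At that level the interval lay within a 1.5-fold change for 24 of the 30 members (80.0%) and for 93.7% of the 1749 genes.

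**Figure D1:**
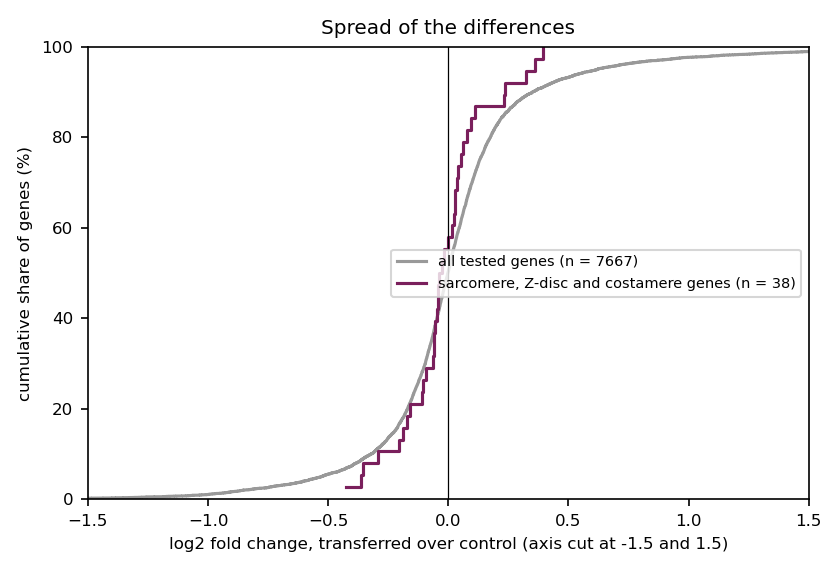
Cumulative share of genes (y axis, %) by log2 fold change of transferred over control hearts (x axis, drawn between -1.5 and 1.5), for the 38 sarcomere, Z-disc and costamere genes and for all 7667 tested genes. The curve of the 38 genes runs from -0.43 to 0.39, and that of all genes has longer tails on both sides.

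The column totals of the 7 libraries ranged from 16402194 to 25190580 counts over chromosomes 1 to 7 and the start of chromosome 8, the part of the genome analysed here. This leaves out sarcomere genes on other chromosomes, such as those of the cardiac myosin heavy chains. A count of 3 corresponded to at most 0.189 CPM after scaling, and the lowest member value was 6.73 CPM, for Lmod1 in transferred heart 2. Of 20 cardiomyocyte markers 10 were in the table, each at 257 CPM or more in every heart, with Atp2a2, the calcium pump of the sarcoplasmic reticulum, between 24481 and 30659 CPM. The summed level of these 10 ran from 53048 to 65401 CPM in the controls and from 52643 to 60294 CPM after transfer. Of the 10, 2 had a log2 fold change above 0 and 8 below, with a median of -0.079, and none passed the adjusted edgeR threshold. At an unadjusted p under 0.05 there was 1 higher, Corin, the protease that activates natriuretic peptides (log2 fold change 0.44, edgeR adjusted p 0.117), against 7.17% of all tested genes. There was 1 lower, Cox7a1, a subunit of cytochrome c oxidase in muscle (log2 fold change -0.36, edgeR adjusted p 0.183), against 5.27%. The groups did not overlap for either, as in 6.0% of all tested genes that were higher and 5.22% that were lower. In tissue RNA, fewer cells of a type and less RNA per cell cannot be told apart. All 9 tested macrophage markers had a log2 fold change above 0 and an edgeR unadjusted p under 0.05, against 7.17% of all tested genes. The median log2 fold change was 0.93, and 2 passed the adjusted threshold, against 0.235% of all tested genes. Their summed level was 485 to 715 CPM in control and 838 to 1248 CPM in transferred hearts. Of 11 tested endothelial markers 7 had a log2 fold change above 0 and 4 below, with a median of 0.0056, and their summed level was 8127 to 9342 CPM in control and 8264 to 9506 CPM in transferred hearts. Among them 2 passed the threshold, both lower, the water channel Aqp1 (-1.01) and the apelin receptor Aplnr (-0.91), each with an edgeR adjusted p of 0.0384. At an unadjusted p under 0.05, 2 of the 11 were higher and 3 lower, against 7.17% and 5.27% of all tested genes. The part of these cells in the values below was not tested.

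Together the 38 genes took 10.5%, 11.2%, 10.3% and 11.4% of the counts in control hearts 1 to 4. They took 11.6%, 9.60% and 10.3% in transferred hearts 1 to 3, so the groups overlapped. Actc1 alone accounted for 2.59% to 4.43% of the counts in a heart.

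Levels of different genes are compared per kilobase of combined exon length, which the deposited table lists for each gene. On that scale the 38 genes ranged from 0.556 CPM per kilobase for Neb to 25217 for Actc1 (means over the 7 hearts). After Actc1 came Myl2 at 7731, Csrp3 at 3237, Mybpc3 at 2633 and Fhl2 at 1863 CPM per kilobase. The lowest heart for Csrp3 was at 3042 and the highest for Mybpc3 at 2870 CPM per kilobase, so the ranges of those neighbours did not overlap. By contrast, Myoz2 (1681 CPM per kilobase, range 1341 to 1916) and Des (1563, range 1330 to 1877) could not be ordered. Combined exons include exons that heart transcripts may skip, so a gene with many isoforms, such as Ttn with 107403 bases, reads lower on this scale than its main transcript would.

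**Figure D2:**
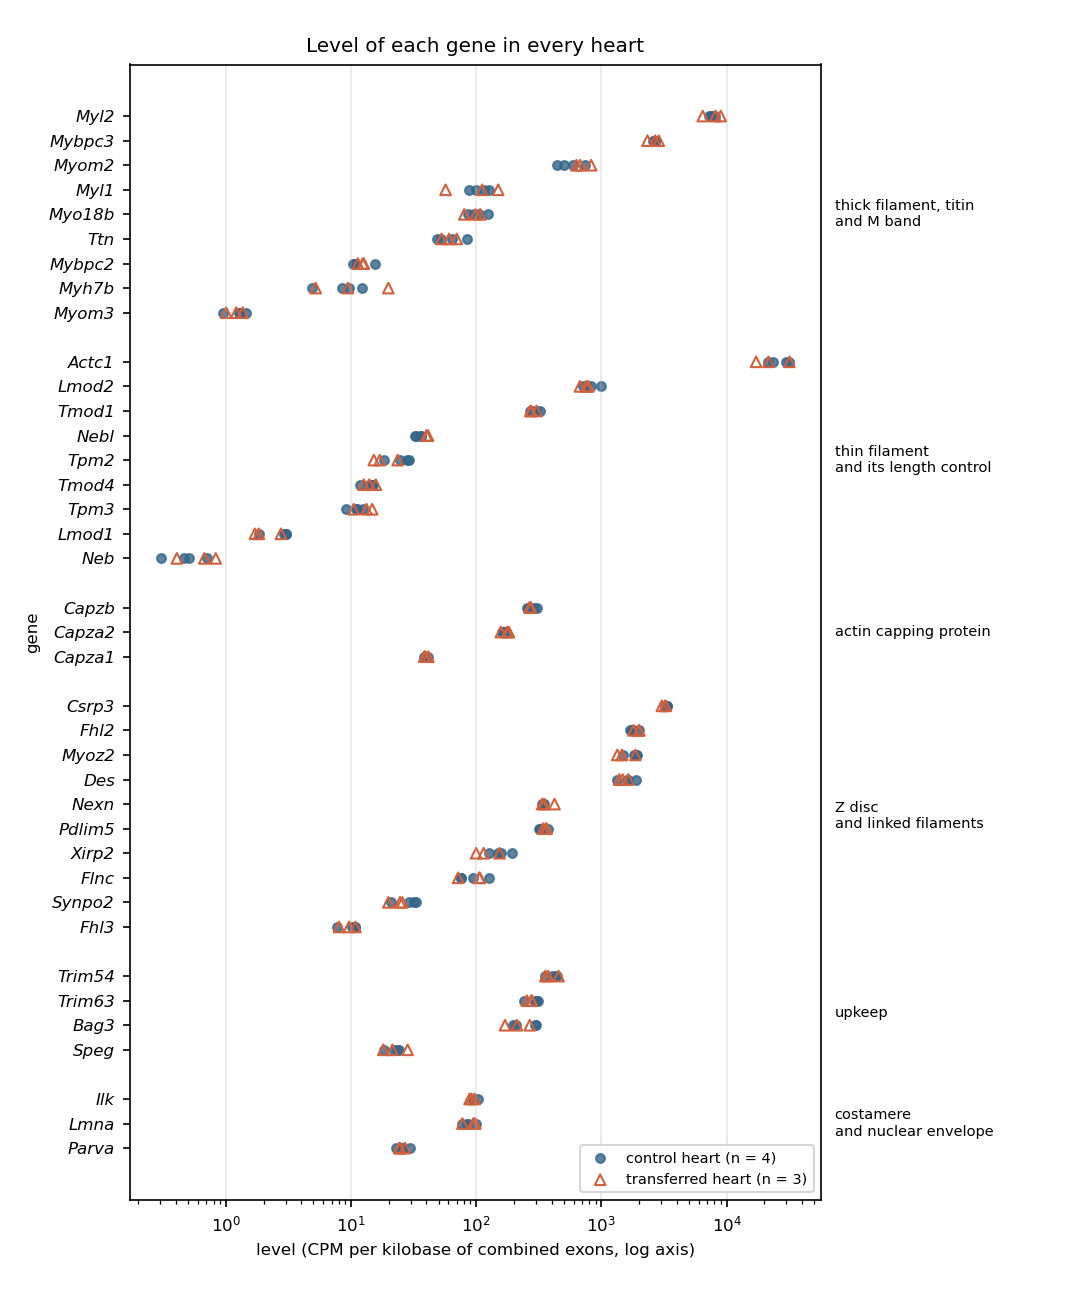
Level of each of the 38 genes (y axis, grouped by role) in each heart, in CPM per kilobase of combined exons (log x axis), with control hearts as filled circles and transferred hearts as open triangles. Levels run from under 1 for Neb to 25217 for Actc1, and within a gene the circles and triangles overlap except for Nebl.

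The thin filament holds the member with the highest level and the member whose groups separated. Actc1 (gene ID 11464, chr2:114047282-114052875 in GRCm38, minus strand) codes for cardiac alpha-actin. It was at 31225, 43469, 34189.7 and 45894 CPM in control hearts 1 to 4 and at 46390.5, 25153 and 31578 CPM in transferred hearts 1 to 3. The highest and the lowest of the 7 hearts both belonged to the transferred group, and the log2 fold change was -0.17 (95% interval -0.65 to 0.31) with an edgeR adjusted p of 0.811. Without transferred heart 2 the sign turned, to 0.012, and without transferred heart 1 the value was -0.45, with an edgeR unadjusted p of 0.034 and an adjusted p of 0.301.

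Nebl (gene ID 74103, chr2:17342673-17734949, minus strand) codes for nebulette, a Z-disc relative of nebulin that binds actin. It was at 789.6, 709, 797 and 722 CPM in control hearts 1 to 4 and at 882, 878 and 899 CPM in transferred hearts 1 to 3. Every transferred heart was above every control heart, and the 3 transferred values lay close together. Means were 754 ± 45.3 CPM (SD, n = 4) against 886 ± 11.4 CPM (SD, n = 3), and the log2 fold change was 0.23 (95% interval 0.063 to 0.40) with a standard error of 0.076. The edgeR unadjusted p was 0.0122 and the adjusted p 0.253, so this difference did not pass over all tested genes. With DESeq2 the adjusted p was 0.0503, and over 17 alternatives it ranged from 0.0503 to 0.566. The same gene also yields a shorter LIM-domain protein, LASP2, from another promoter, and counts per gene do not separate the 2 products.

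RefSeq promoter windows, from 250 bases before to 50 bases after an annotated start (GRCm38.p6), were found for 33 of the 38 genes. They were searched on both strands for the CArG box, the binding sequence of serum response factor, and for the binding sequence of MEF2, factors known to act at muscle genes. A CArG box was present in 4 of 47 windows (8.51%), those of Actc1, Fhl2 and Nebl, and in 1.63% of all 32851 windows. A MEF2 sequence was present in 8 of 47 windows (17.0%) and in 3.19% of all. The 8 genes were Fhl2, Mybpc3, Myom3, Myoz2, Speg, Synpo2, Ttn and Xirp2, whose log2 fold changes ran from -0.36 to 0.096. The sequence TATAAA, searched in the same way, was present in 7 of 47 windows (14.9%) and in 13.6% of all. The windows of Actc1, the most abundant member, Nebl, the member whose groups separated, and Xirp2 and Myoz2, Z-disc genes shown as examples of the MEF2 sequence, are given 5′ to 3′ with the match in capitals. The Nebl window is 1 of 4 listed for that gene. It lies inside the gene, which on the minus strand begins at position 17734949. Whether transcription starts at this window in the heart was not tested.
Actc1, CArG box, chr2:114052826-114053125, minus strand: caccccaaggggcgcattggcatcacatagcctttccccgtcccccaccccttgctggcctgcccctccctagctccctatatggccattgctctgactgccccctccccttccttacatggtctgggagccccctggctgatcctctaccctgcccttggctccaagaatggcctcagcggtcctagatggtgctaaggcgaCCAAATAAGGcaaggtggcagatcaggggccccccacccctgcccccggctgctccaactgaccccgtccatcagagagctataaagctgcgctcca
Nebl, CArG box, chr2:17462807-17463106, minus strand: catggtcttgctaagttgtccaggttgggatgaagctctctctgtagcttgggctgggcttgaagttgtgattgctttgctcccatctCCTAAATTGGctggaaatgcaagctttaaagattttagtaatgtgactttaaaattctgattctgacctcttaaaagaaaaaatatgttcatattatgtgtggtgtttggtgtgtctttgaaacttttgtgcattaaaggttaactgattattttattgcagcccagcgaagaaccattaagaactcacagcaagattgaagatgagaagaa
Xirp2, MEF2, chr2:67445752-67446051, plus strand: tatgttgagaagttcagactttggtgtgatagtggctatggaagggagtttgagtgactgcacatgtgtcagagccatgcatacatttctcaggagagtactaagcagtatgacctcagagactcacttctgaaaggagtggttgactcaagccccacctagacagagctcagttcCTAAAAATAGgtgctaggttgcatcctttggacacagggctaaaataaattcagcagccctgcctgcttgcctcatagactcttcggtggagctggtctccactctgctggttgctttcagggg
Myoz2, MEF2, chr3:123034938-123035237, minus strand: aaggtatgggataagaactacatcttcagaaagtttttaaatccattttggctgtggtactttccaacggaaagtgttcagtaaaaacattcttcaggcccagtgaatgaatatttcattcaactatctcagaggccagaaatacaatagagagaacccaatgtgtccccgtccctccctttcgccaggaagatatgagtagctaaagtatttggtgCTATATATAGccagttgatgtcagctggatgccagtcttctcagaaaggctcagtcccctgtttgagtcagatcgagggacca
Such a match describes letters in the sequence, and no binding was measured here.

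Tropomyosins lie along actin and gate its contact with myosin, and Tpm2 and Tpm3 gave values in opposite directions. Tpm2 (gene ID 22004, chr4:43513726-43523583, minus strand), which codes for beta-tropomyosin, was at 93.9, 82.2, 61.6 and 98 CPM in control hearts 1 to 4 and at 56.9, 51 and 79.2 CPM in transferred hearts 1 to 3. Transferred hearts 1 and 2 were below all controls, while transferred heart 3 was not. The log2 fold change was -0.43 (95% interval -0.85 to 0.00036), with an edgeR unadjusted p of 0.0502 and an adjusted p of 0.401. Tpm3 had a log2 fold change of 0.24 (95% interval -0.057 to 0.53), and transferred hearts 1 and 2 were above all controls. Tpm2 made up 62.6% to 75.5% (control) and 53.4% to 69.2% (transferred) of the summed Tpm2 and Tpm3 level per kilobase. These ranges overlapped. Tpm1 and Tpm4, other tropomyosin genes, were not among the genes analysed here, so these are not shares of all tropomyosin.

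Filament length is set at the pointed end, where leiomodins add actin and tropomodulins cap it. Lmod2, the cardiac leiomodin, had a log2 fold change of -0.16 (95% interval -0.42 to 0.10), and Tmod1, the cardiac tropomodulin, one of -0.054 (95% interval -0.26 to 0.15). Both intervals lay within 1.5-fold of no change. Tmod4, a tropomodulin best known from skeletal muscle, was at 54.8 CPM in control hearts, with a log2 fold change of 0.023 (95% interval -0.23 to 0.27). It made up 3.71% to 5.33% (control) and 4.46% to 4.94% (transferred) of the summed Tmod4 and Tmod1 level per kilobase. Tmod4 overlaps Vps72 on the same strand, which had a mean of 1092 counts against 1166 for Tmod4. The part of Vps72 in the Tmod4 values was not tested. Neb, which codes for the giant ruler protein of skeletal thin filaments, lay between 7.19 and 16.7 CPM in the controls and between 9.62 and 19.7 CPM after transfer. It made up 0.91% to 1.98% of the summed Neb and Nebl level per kilobase over the 7 hearts.

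At the barbed end, the capping protein CapZ anchors actin in the Z disc as a dimer of an alpha and a beta subunit. All 3 of its genes had narrow intervals. Capzb (gene ID 12345, chr4:139192899-139291820, plus strand) was at 532, 586, 507 and 610.0 CPM in control hearts 1 to 4 and at 548, 542 and 536 CPM in transferred hearts 1 to 3. All 3 transferred values fell inside the control range, with a log2 fold change of -0.044 (95% interval -0.23 to 0.14) and an edgeR adjusted p of 0.876. Without control heart 4 it was 0.00087. Capza2 (gene ID 12343, chr6:17637010-17666972, plus strand) was at 411, 414, 436 and 407 CPM in control hearts 1 to 4 and at 458, 443 and 395 CPM in transferred hearts 1 to 3. Its groups overlapped, with a log2 fold change of 0.051 (95% interval -0.12 to 0.22) and an edgeR adjusted p of 0.84. Capza1 had a log2 fold change of 0.016 (95% interval -0.14 to 0.17) and made up 18.2% to 20.3% (control) and 18.2% to 19.6% (transferred) of the 2 alpha subunits per kilobase. The alpha subunits together reached 0.669 to 0.841 of the Capzb level per kilobase in control hearts and 0.734 to 0.820 in transferred hearts.

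Among thick filament genes, Myl2 (gene ID 17906, chr5:122092724-122113473, plus strand), the regulatory light chain of the ventricle, had the highest level. It was at 19951, 20756, 18684 and 19497 CPM in control hearts 1 to 4 and at 23205, 21024 and 16663 CPM in transferred hearts 1 to 3. Transferred heart 1 was the highest and transferred heart 3 the lowest of the 7, and the log2 fold change was 0.042 (95% interval -0.23 to 0.31), with an edgeR adjusted p of 0.926. The sign turned without transferred heart 1 (-0.065). Mybpc3, cardiac myosin-binding protein C, had group means of 11077 ± 208 CPM (SD, n = 4) against 11062 ± 1149 CPM (SD, n = 3), and its interval reached from -0.22 to 0.22. Ttn, titin, ranged from 5206 CPM in control heart 3 to 8993 CPM in control heart 1, with all 3 transferred hearts between them. Myo18b, an unconventional myosin needed for sarcomere assembly, had a log2 fold change of -0.11 (95% interval -0.41 to 0.20).

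Myom2 (gene ID 17930, chr8:15057653-15133420, plus strand) codes for myomesin 2, which crosslinks thick filaments at the M band. It was at 3918, 2687, 3153 and 2353 CPM in control hearts 1 to 4 and at 4411, 3365 and 3598 CPM in transferred hearts 1 to 3. Transferred heart 1 was the highest of all, but control heart 1 was above the other transferred hearts, so the groups overlapped. The log2 fold change was 0.32 (95% interval -0.055 to 0.70), with a standard error of 0.17, an edgeR unadjusted p of 0.0859 and an adjusted p of 0.494. With the form of the sample identifiers (a letter prefix or numbers alone) as a covariate it was 0.30, with an edgeR unadjusted p of 0.0306 and an adjusted p of 0.324. Without transferred heart 1 it was 0.20, with an edgeR adjusted p of 0.64. Myom3, a relative known from intermediate muscle fibres, made up 0.121% to 0.25% of the summed Myom3 and Myom2 level per kilobase.

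Myh7b, Myl1 and Neb had the widest intervals of the 38. Myh7b, a slow myosin heavy chain gene that hosts a muscle microRNA, was at 78, 68.5, 99 and 40.1 CPM in control hearts 1 to 4 and at 42.6, 77 and 162 CPM in transferred hearts 1 to 3. Its coefficients of variation were 34.2% and 65.5% in control and transferred hearts, and the bounds of its 95% interval correspond to 0.568 and 3.03 times the control level. The gene overlaps Trpc4ap on the opposite strand, which had more counts, and whether counting used strand is not given in the sources used here. Myl1, an alkali light chain of fast skeletal muscle, was at 437, 166 and 325 CPM in transferred hearts 1 to 3, the first above and the second below all controls.

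Several members are best known from skeletal muscle, and markers of that tissue were measured beside them. Of 18 listed, 9 were in the table, and 4 of these were under 1 CPM in every heart. Myod1 and Myog, which define the skeletal lineage, reached at most 0.141 and 0.115 CPM, 3 counts or fewer in any heart. Mylpf, the fast regulatory light chain, was between 0.941 and 1.65 CPM. The list summed to 58.2 to 71.4 CPM in control and 66.8 to 103 CPM in transferred hearts, mostly from Casq1 and Cacna1s. Of the 6 tested, 2 had a log2 fold change above 0 and 4 below, with a median of -0.38, and none passed the adjusted edgeR threshold. At an unadjusted p under 0.05 there was 1 of 6, higher, against 7.17% of all tested genes. It was Cacna1s, a calcium channel subunit, with a log2 fold change of 0.33 and an edgeR adjusted p of 0.292. The members Myl1 and Mybpc2 had means of 313 and 65.1 CPM in control hearts.

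At the Z disc, Csrp3 (gene ID 13009, chr7:48830398-48848051, minus strand), the muscle LIM protein known as a stretch-sensing partner of the Z disc, was the most abundant per kilobase. It was at 3187, 3115, 3238 and 3238 CPM in control hearts 1 to 4 and at 3133, 3176 and 2959.8 CPM in transferred hearts 1 to 3. The 7 hearts differed little, and the coefficients of variation were 1.83% and 3.71% in control and transferred hearts. The log2 fold change was -0.048 (95% interval -0.22 to 0.13), with an edgeR adjusted p of 0.853, so the bounds correspond to 0.857 and 1.09 times the control level.

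Xirp2 (gene ID 241431, chr2:67446000-67526620, plus strand) codes for an actin-binding repeat protein of the intercalated disc and Z disc. It was at 2337, 1788, 1518 and 1883 CPM in control hearts 1 to 4 and at 1839.5, 1198 and 1373 CPM in transferred hearts 1 to 3. Transferred hearts 2 and 3 were the lowest of the 7, while transferred heart 1 lay inside the control range. Means were 1882 ± 341 CPM (SD, n = 4) against 1470.0 ± 332 CPM (SD, n = 3), and the log2 fold change was -0.36 (95% interval -0.74 to 0.032) with an edgeR unadjusted p of 0.0682 and an adjusted p of 0.452. With the identifier form as a covariate it was -0.40, with an edgeR unadjusted p of 0.0040 and an adjusted p of 0.160. Leaving out control heart 1 or transferred heart 2 gave -0.23, with edgeR adjusted p-values of 0.653 and 0.786, and leaving out transferred heart 1 gave -0.55, with one of 0.176.

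The other Z-disc genes also overlapped between groups. Des, desmin, had a log2 fold change of -0.094 (95% interval -0.37 to 0.18) and Myoz2, a calcineurin-binding calsarcin, one of -0.19 (95% interval -0.49 to 0.11). Nexn, nexilin, varied by 1.16% among control hearts, from 1663 to 1707 CPM. Transferred hearts 1 and 3 were above that range at 2078 and 1719.8 CPM and transferred heart 2 was below it at 1659 CPM, with a log2 fold change of 0.11 (95% interval -0.10 to 0.32). Pdlim5, a PDZ and LIM scaffold, and Fhl2, a LIM protein that binds titin, had log2 fold changes of 0.079 (95% interval -0.12 to 0.27) and 0.096 (95% interval -0.11 to 0.30). Flnc, the muscle filamin, had a log2 fold change of 0.029 (95% interval -0.44 to 0.50), and Fhl3 one of -0.06 (95% interval -0.39 to 0.27).

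Lmod1, Synpo2 and Tpm2 are also expressed in vascular smooth muscle, and their values lay below 0 together. Synpo2, synaptopodin 2, was at 227, 252, 165 and 263 CPM in control hearts 1 to 4 and at 195, 157 and 203 CPM in transferred hearts 1 to 3. Transferred heart 2 was the lowest of the 7, followed by control heart 3, and the log2 fold change was -0.29 (95% interval -0.65 to 0.06). Lmod1, the smooth muscle leiomodin, was at 11.5, 12, 7.29 and 11.9 CPM in control hearts 1 to 4 and at 7.24, 6.73 and 10.9 CPM in transferred hearts 1 to 3. Here too transferred heart 2 was the lowest and control heart 3 lay near transferred heart 1, with a log2 fold change of -0.36 (95% interval -0.88 to 0.15). None of these passed the threshold, with edgeR adjusted p-values of 0.509 for Synpo2 and 0.576 for Lmod1. This grouping was made after the values were seen.

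Of 16 smooth muscle and mural cell markers 7 were in the table, 1 of them the member Des, and 6 of 7 had a log2 fold change below 0. Their summed level was 6362 to 8137 CPM in control and 6580 to 7215 CPM in transferred hearts, mostly from Des and Rgs5. None passed the adjusted threshold and 1 of 7 had an unadjusted p under 0.05, against 12.4% of all tested genes (5.27% lower in transferred hearts). It was Itga8, an integrin subunit, at 26.8 ± 4.04 CPM (SD, n = 4) against 17.7 ± 2.1 CPM (SD, n = 3). Its log2 fold change was -0.60 (95% interval -0.93 to -0.28) and its edgeR adjusted p 0.127. The part of these cells in the values of Lmod1, Synpo2 and Tpm2 was not tested.

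**Figure D3:**
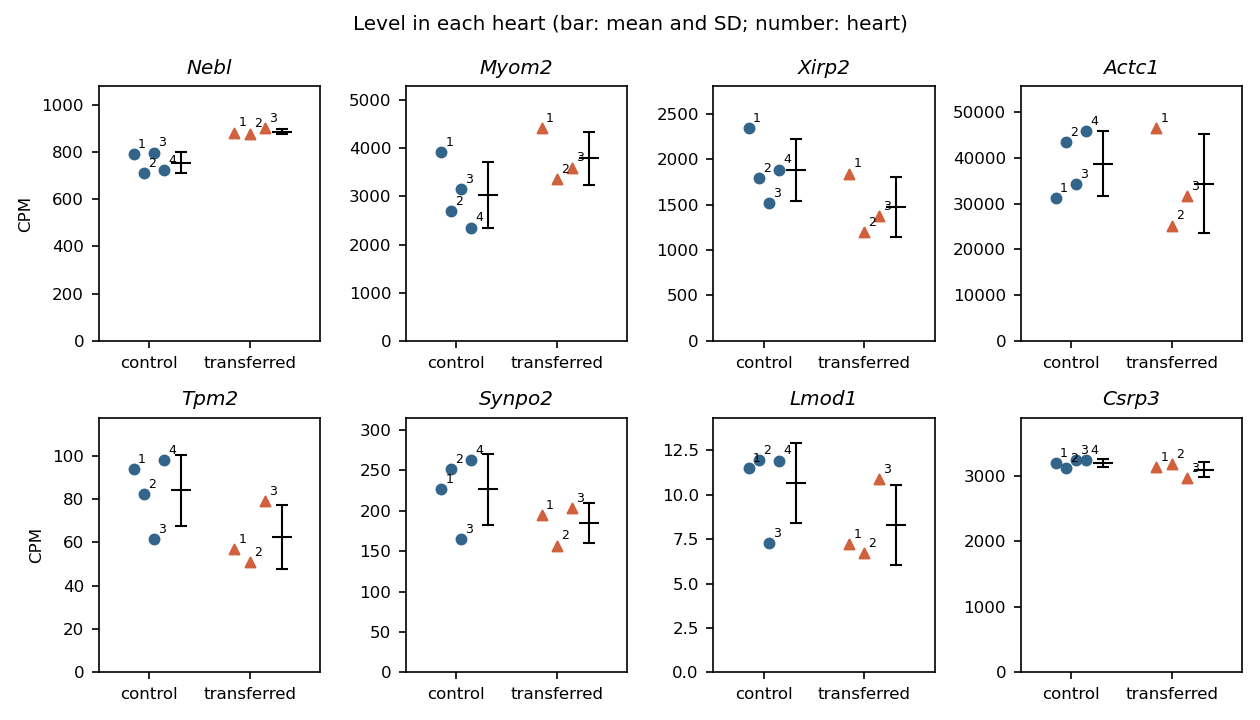
CPM (y axis, from 0) in each heart for 8 genes, with control hearts as circles and transferred hearts as triangles, numbered by heart, and the mean and SD beside each group. Nebl separates the groups, Csrp3 is nearly level, and in the other 6 genes a transferred heart lies inside the control range.

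The upkeep of sarcomere proteins depends on chaperones and ubiquitin ligases. Trim54 (gene ID 58522, chr5:31116612-31137626, plus strand), the ligase MuRF3 that associates with microtubules, had the highest level of the 4 genes of this kind. It was at 662, 620.2, 539 and 675 CPM in control hearts 1 to 4 and at 697, 575 and 547 CPM in transferred hearts 1 to 3. Its groups overlapped, with a log2 fold change of -0.042 (95% interval -0.29 to 0.20) and an edgeR adjusted p of 0.915. Without transferred heart 3 it was 0.028. Trim63, the ligase MuRF1 known to rise in muscle wasting, had means of 638 ± 71.7 CPM (SD, n = 4) against 594 ± 29.8 CPM (SD, n = 3) and a log2 fold change of -0.10 (95% interval -0.33 to 0.12).

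Bag3 (gene ID 29810, chr7:128523583-128546981, plus strand) codes for a co-chaperone that clears damaged filamin at the Z disc. It was at 511, 759.9, 537 and 784 CPM in control hearts 1 to 4 and at 694, 441 and 549 CPM in transferred hearts 1 to 3. Transferred heart 2 was the lowest of the 7, and the log2 fold change was -0.21 (95% interval -0.65 to 0.23) with an edgeR adjusted p of 0.733. Without transferred heart 2 it was -0.060, and without transferred heart 1 it was -0.39. Speg, a muscle kinase related to titin and obscurin, had a log2 fold change of 0.037 (95% interval -0.30 to 0.37).

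Ilk, Parva and Lmna stand for the costamere and the nuclear envelope. Ilk (gene ID 16202, chr7:105736590-105742925, plus strand) codes for integrin-linked kinase, which with its partner alpha-parvin connects integrins to actin. It was at 178, 178, 178 and 194 CPM in control hearts 1 to 4 and at 183, 173 and 166 CPM in transferred hearts 1 to 3. Controls 1 to 3 were almost identical, and the groups overlapped, with a log2 fold change of -0.065 (95% interval -0.22 to 0.095) and an edgeR adjusted p of 0.781. Its span overlaps Rrp8 and Taf10 on the opposite strand. Parva had a log2 fold change of -0.037 (95% interval -0.25 to 0.17), and Lmna, which codes for lamins A and C, one of 0.061 (95% interval -0.18 to 0.30). All 3 intervals lay within 1.5-fold of no change.

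**Figure D4:**
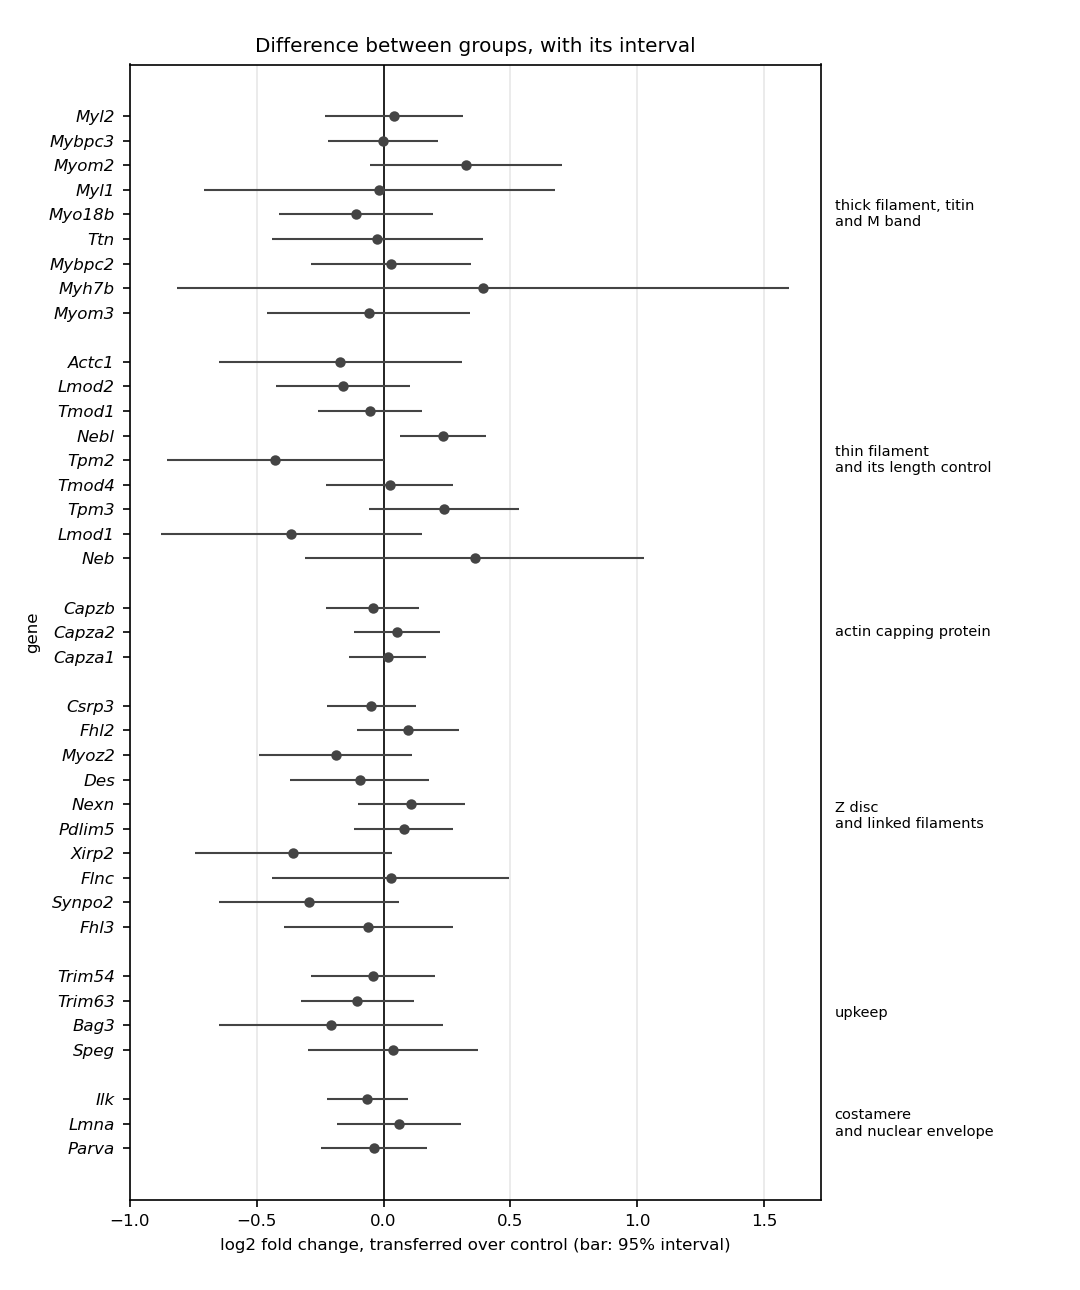
Log2 fold change of transferred over control hearts (x axis) with its 95% interval (bar) for each of the 38 genes (y axis, grouped by role). Every interval crosses 0 except that of Nebl, which runs from 0.063 to 0.40, and the widest belongs to Myh7b.

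The role groups are described by their counts, with no test between them. Of 9 thick filament, titin and M-band genes 4 had a log2 fold change above 0, as did 4 of 9 thin filament genes, 2 of 3 capping protein genes and 4 of 10 Z-disc genes. The same held for 1 of 4 upkeep genes and 1 of 3 costamere and nuclear envelope genes. Group medians ran from -0.073 for the upkeep genes to 0.016 for the capping protein.

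Hearts of the same group also differed from each other. The median coefficient of variation was 12.1% in control and 13.2% in transferred hearts, and it was the larger in transferred hearts for 22 of 38 genes. Transferred heart 1 held the highest value of the 7 for 13 genes and the lowest for 0. Transferred heart 2 held the highest for 0 and the lowest for 12. Control heart 4, the library with the fewest counts, held the highest for 14 and the lowest for 5. The median deviation from the control mean was 0.080 on the log2 scale in transferred heart 1, -0.072 in transferred heart 2 and -0.049 in transferred heart 3, against a range of -0.077 to 0.079 in control hearts.

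**Figure D5:**
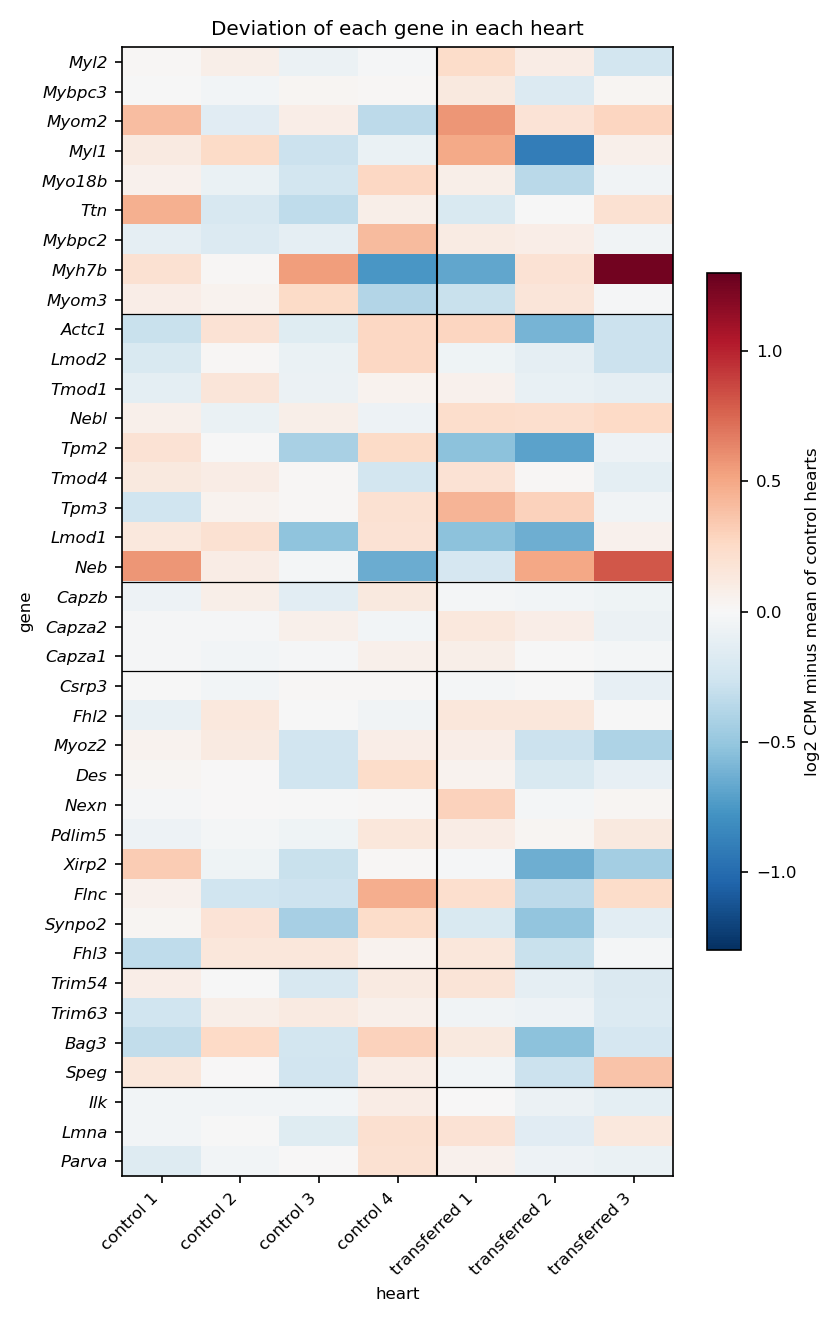
Log2 CPM minus the mean of the control hearts (colour) for each of the 38 genes (rows, grouped by role) in each heart (columns), with a vertical line between control and transferred hearts. Transferred heart 1 is mostly above and transferred heart 2 mostly below the control mean. Nebl, Myom2 and Pdlim5 are above it in all 3 transferred hearts.

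No batch is named in the labels. The sample identifiers come in 2 forms, with a letter prefix for control heart 1 and transferred heart 1 and with numbers alone for the other 5 hearts. Within the 5 hearts with numbers alone, 12 of 38 genes (31.6%) did not overlap between the groups, 3 higher and 9 lower in transferred hearts, against 31.5% of all tested genes. In 9 of these 12 the pair with the prefix, 1 heart of each group, differed in the opposite direction. The matching share over all tested genes was not computed, so this count is not read as a trait of the 38 genes. In the fit on the 5 hearts, 0 of the 38 passed the adjusted edgeR threshold. There 7 had an unadjusted p under 0.05 (13.6% of all tested genes), namely Nebl, Neb, Xirp2, Actc1, Myoz2, Bag3 and Myom2. Nebl was higher in both, with a log2 fold change of 0.27 in the 5 hearts and a log2 ratio of 0.16 between the prefixed pair. Myom2 was at 0.36 and 0.17, and Xirp2 at -0.42 and -0.35.

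The other 4 of these 7, Actc1, Neb, Bag3 and Myoz2, had opposite signs in the 5 hearts and in the prefixed pair. The log2 fold change of Actc1 was -0.53 in the 5 hearts, and the log2 ratio between the prefixed pair was 0.57. For Neb these were 0.82 and -0.79, for Bag3 -0.48 and 0.44, and for Myoz2 -0.32 and 0.036. A test of the dependence on the identifier form, an edgeR interaction added after seeing these values, called 0 of the 38 after adjustment. Its count at an unadjusted p under 0.05 was 7 of 38, with 8.27% over all tested genes, from which nothing is read: the prefixed form holds 1 heart of each group, with no spread of its own, and the test was run on the values that prompted it.

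Other genes of the same structures gave a like picture. Of 97 listed, 33 were in the table and 31 were tested, and 0 passed the adjusted edgeR threshold in either direction. At an unadjusted p under 0.05 there were 3 of 31, 1 higher and 2 lower, against 7.17% of all tested genes higher and 5.27% lower. The median log2 fold change was -0.033, with 13 above 0 and 18 below.

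Synm, which codes for the desmin partner synemin, was at 49, 45.4, 41 and 51.7 CPM in control hearts 1 to 4 and at 32.4, 36.4 and 41.1 CPM in transferred hearts 1 to 3. Transferred hearts 1 and 2 were below all controls and transferred heart 3 just reached the lowest of them, with a log2 fold change of -0.35 (95% interval -0.60 to -0.098) and an edgeR adjusted p of 0.243. Csrp1, a LIM protein of smooth muscle and relative of Csrp3, was at 134, 121, 122 and 146 CPM in control hearts 1 to 4 and at 113, 111 and 102 CPM in transferred hearts 1 to 3. All transferred hearts were below all controls, as in 5.22% of all tested genes, with a log2 fold change of -0.27 (95% interval -0.46 to -0.072) and an edgeR adjusted p of 0.255. Trim55, the ligase MuRF2 and relative of Trim54 and Trim63, was at 311, 270.3, 329 and 264 CPM in control hearts 1 to 4 and at 324, 348 and 377 CPM in transferred hearts 1 to 3. Transferred hearts 2 and 3 were above all controls, with a log2 fold change of 0.25 (95% interval 0.034 to 0.47) and an edgeR adjusted p of 0.325.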

How the data were processed

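The authors deposited a table of estimated counts per gene, not normalized, with 4.63% of values fractional. Per the submitters' processing notes, the tools included STAR 2.7.2b and featureCounts 1.6.4 and the build was GRCm38.p6. The labels state polyadenylated RNA, and the design text paired-end reads of 75 nt. The deposited table lists combined exon lengths in bases. Of its rows 20343 were complete, and the last, cut short, was dropped. It ends on chromosome 8 at position 25129815, so column totals are not library depths.

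Counts were rounded, filtered with filterByExpr, scaled by TMM and tested with the edgeR 4.0.16 quasi-likelihood test (robust) in R 4.3.3, with Benjamini-Hochberg adjustment over all 7667 genes and a threshold of 0.05. CPM are TMM-scaled, without rounding. Intervals (95%) came from the quasi-likelihood F statistic. On simulated counts for 7595 genes, the test recovered 80% of genes changed by 1 on the log2 scale and 24.5% of those changed by 0.5, and 95.5% of intervals held the true value. Alternatives used DESeq2 1.42.0, limma 3.58.1, other scalings and filters, the identifier form and left-out hearts. Groups came from the treatment label, and replicate numbers only name samples. Members and lists were chosen with earlier results of these data known. Named genes were, in each role, the member with the highest level per kilobase and the one with the smallest p, plus any past the threshold or without overlap. Others are named outside this rule. Fractional values occurred in 20 members, in at most 4 libraries, and 9 members overlap another gene with a mean of at least 5 counts.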

Additional observations from a re-analysis of the deposited data

Results flagged for a closer look

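Among the 4 control hearts, 41 genes (the 38 members and 3 others) were checked for a heart far from the other 3, and 4 were marked, where chance alone marks about 1 in 20, or 2.05. A heart was marked where its gap to the nearest other heart took a large share of the whole range (Dixon's test). That share, computed on the log2 scale, is given for each. Mybpc2 was at 85.4 CPM in control heart 4 and at 56.7 to 59.2 CPM in the other controls (share 0.895). Lmod1 was at 7.29 CPM in control heart 3 and at 11.5 to 11.96 CPM in the others (share 0.924). Trim63 was at 532 CPM in control heart 1 and at 667 to 686 CPM in the others (share 0.887). Ilk was at 194 CPM in control heart 4 and at 177.7 to 177.9 CPM in the others (share 0.986).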

How the results depend on the processing

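No member passed the adjusted threshold under any of the 17 alternatives, and the lowest adjusted p of a member was 0.0503 (Nebl, DESeq2). The count of 1 gene at an unadjusted p under 0.05 became 2 with upper-quartile scaling, column total scaling or no robust estimation (12.7%, 11.9% and 12.6% of all tested genes). It became 3 with DESeq2 or the identifier prefix as a covariate (12.9% and 12.7%), in the latter Nebl, Xirp2 and Myom2, and 7 in the 5 hearts with numeric identifiers (13.6%). Leaving out 1 heart gave from 1 to 5, with the share of all tested genes moving from 8.66% to 14.6%. It gave 2 without control heart 1 or 4 (10.9% and 10.2%), 5 without control heart 3 (12.8%), 4 without transferred heart 1 or 3 (14.6% and 13.4%) and 1 without control heart 2 or transferred heart 2 (8.66% and 9.06%). Nebl was among them in all 17. The median log2 fold change ranged from -0.064 to 0.012, the latter without transferred heart 2, and RLE and column total scaling left 1 member without overlap. The 14 genes tested singly kept direction and side of the threshold in 233 of 238 comparisons. Myl2 changed sign in the 5 hearts with numeric identifiers (-0.052). Leaving out 1 heart moved Myl2 from -0.065 (without transferred heart 1) to 0.17, Actc1 from -0.45 to 0.012 (without transferred heart 2), Capzb from -0.087 to 0.00087 (without control heart 4) and Trim54 from -0.15 to 0.028 (without transferred heart 3). Bag3 moved from -0.39 (without transferred heart 1) to -0.060 (without transferred heart 2), Xirp2 from -0.55 (without transferred heart 1) to -0.23 (without transferred heart 2 or control heart 1) and Myom2 from 0.20 (without transferred heart 1) to 0.48 (without control heart 1). The cause was not tested. No paired analysis was possible because replicate numbers only name the hearts, and the one blocked fit is that on the identifier prefix.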
